A study of Mus musculus with 19 samples.

Results

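De novo lipogenesis, the making of fatty acids from acetyl-CoA, was examined in mouse liver through 10 genes of its core pathway, which were taken by symbol from the 24054 gene symbols of the deposited RNA-seq table. They were Acly, Acss2, Me1, Acaca, Acacb, Fasn, Thrsp, Elovl6, Scd1 and Mlxipl, and all 10 were found and tested. Livers came from 3 L-RalyKO and 3 control mice, all Raly flox/flox on a C57BL/6 background and fed chow, whose RNA was sequenced 4 weeks after virus. L-RalyKO mice had received AAV8.TBG.Cre, in which the hepatocyte promoter TBG drives the Cre recombinase, and controls had received AAV8.TBG.GFP. Controls were therefore floxed and carried virus too, although the sample labels call them wild type, and liver cells other than hepatocytes were not targeted. The study used male mice unless it said otherwise, and the age of the mice is not given in the sources used here. RALY is an RNA-binding protein of the hnRNP family, and the study asked what its loss from hepatocytes does to lipid metabolism. The labels number separate samples and do not identify the animals, so p values measure the spread between these samples.

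Lipogenesis runs in the cytosol. Citrate from mitochondria is split to acetyl-CoA, which is carboxylated to malonyl-CoA and joined into palmitate with NADPH as the reductant, and palmitate is then lengthened and desaturated. In liver the pathway is known to be driven after feeding by insulin through SREBP1c and by glucose through ChREBP. Whether mice were fed or fasted at collection is not given for the RNA-seq livers in the sources used here. The study describes its liver qPCR of Srebp1c as from fasting mice.

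Values are read counts of a gene divided by effective library size, on the scale of CPM, as the authors deposited them. Genes were compared with limma on log2(value + 1), with p values adjusted over the 11580 genes whose mean reached 1, and a gene counts as changed at an adjusted p under 0.05. Fold changes are on that log2 scale, as L-RalyKO minus control. Libraries held 28302983 to 38052705 reads on genes, and no member had fewer than 4356 reads in any mouse. Mean Raly values fell from 48.5 ± 1.67 in controls to 6.78 ± 0.546 in L-RalyKO (SD, n = 3 each; log2 fold change of -2.67, limma adjusted p = 6.92e-07). The remaining Raly reads were not assigned to a cell type. In whole liver RNA, fewer cells of a type and less RNA per cell cannot be told apart.

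The stretch before the start site is shown for the members with the largest falls, Acly, Fasn and Elovl6, and for Acacb, the carboxylase whose groups overlapped. CCAAT is the word bound by NFY, a factor that the study examined together with RALY. Sequences are the 250 bases upstream of the RefSeq start in GRCm38.p6, read 5′ to 3′ on the strand of the gene. The windows are chr11:100528001-100528250 on the − strand for Acly, chr11:120824548-120824797 on the − strand for Fasn, chr3:129532136-129532385 on the + strand for Elovl6 and chr5:114165268-114165517 on the + strand for Acacb. Capitals mark CCAAT on either strand, which on the opposite strand reads ATTGG.
Acly: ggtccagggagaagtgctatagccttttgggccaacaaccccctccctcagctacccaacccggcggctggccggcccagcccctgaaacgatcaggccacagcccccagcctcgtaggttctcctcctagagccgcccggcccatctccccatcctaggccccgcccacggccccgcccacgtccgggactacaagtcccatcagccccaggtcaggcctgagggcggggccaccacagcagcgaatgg
Fasn: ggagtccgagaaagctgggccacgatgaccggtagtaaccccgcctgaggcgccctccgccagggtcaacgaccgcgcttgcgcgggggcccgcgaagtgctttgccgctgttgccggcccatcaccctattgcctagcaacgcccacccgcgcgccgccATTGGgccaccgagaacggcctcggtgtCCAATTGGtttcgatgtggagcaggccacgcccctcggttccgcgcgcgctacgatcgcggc
Elovl6: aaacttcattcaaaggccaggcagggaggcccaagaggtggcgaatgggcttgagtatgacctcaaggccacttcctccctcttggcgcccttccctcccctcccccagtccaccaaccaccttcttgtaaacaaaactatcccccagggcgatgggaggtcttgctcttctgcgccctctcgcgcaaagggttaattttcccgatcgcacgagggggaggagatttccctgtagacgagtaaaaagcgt
Acacb: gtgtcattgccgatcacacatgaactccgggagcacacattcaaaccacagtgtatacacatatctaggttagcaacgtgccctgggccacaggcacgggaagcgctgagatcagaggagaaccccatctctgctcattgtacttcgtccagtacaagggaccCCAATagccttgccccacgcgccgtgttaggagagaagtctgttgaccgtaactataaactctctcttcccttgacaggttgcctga
The Fasn window held 3 matches, of which the 2 nearest the start overlap, and the Acacb window held 1. No match was in the windows of Acly and Elovl6, which says only that these letters are not in those bases. Of 32851 RefSeq windows of the same length, 33.8% held CCAAT. Among the other members with a window in the table, Acaca had no match, Acss2 had 1, Thrsp had 2, and Me1 and Mlxipl had 1 in a second annotated window. The sterol regulatory word TCACNCCAC, of the kind bound by SREBP, was in 1 Mlxipl window (1.05% of all windows) and the E-box CACGTG in the other (6.02% of all windows). Scd1 was not matched in the table. A match is a description of the sequence and not a measured binding site.

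Of the 10 genes, 4 changed, and all 4 were lower in L-RalyKO liver. These were Acly, Acaca, Fasn and Elovl6, which make acetyl-CoA, malonyl-CoA, palmitate and stearate in turn. Over all tested genes 3.19% were called lower, 3.36% higher and 6.55% in either direction. With edgeR's quasi-likelihood test 4 members were called too, beside 6.76% of tested genes in either direction. Values of L-RalyKO lay below all control values in 5 members, the same 4 and Mlxipl, beside 13.7% of tested genes (28.1% in either direction). At an unadjusted p under 0.05 there were also 5, beside 22.7% of tested genes. The median log2 fold change was -0.27 over the members and 0.00 over all tested genes, and 9 of the 10 fitted values were below 0, beside 48.8% of tested genes. Acly and Elovl6 stayed past the threshold when any 1 of the 6 mice was left out. The number of members called was 2 without L-RalyKO mouse 1 or 3 or control mouse 1 or 2, 3 without L-RalyKO mouse 2, and 4 without control mouse 3.

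**Figure D1:**
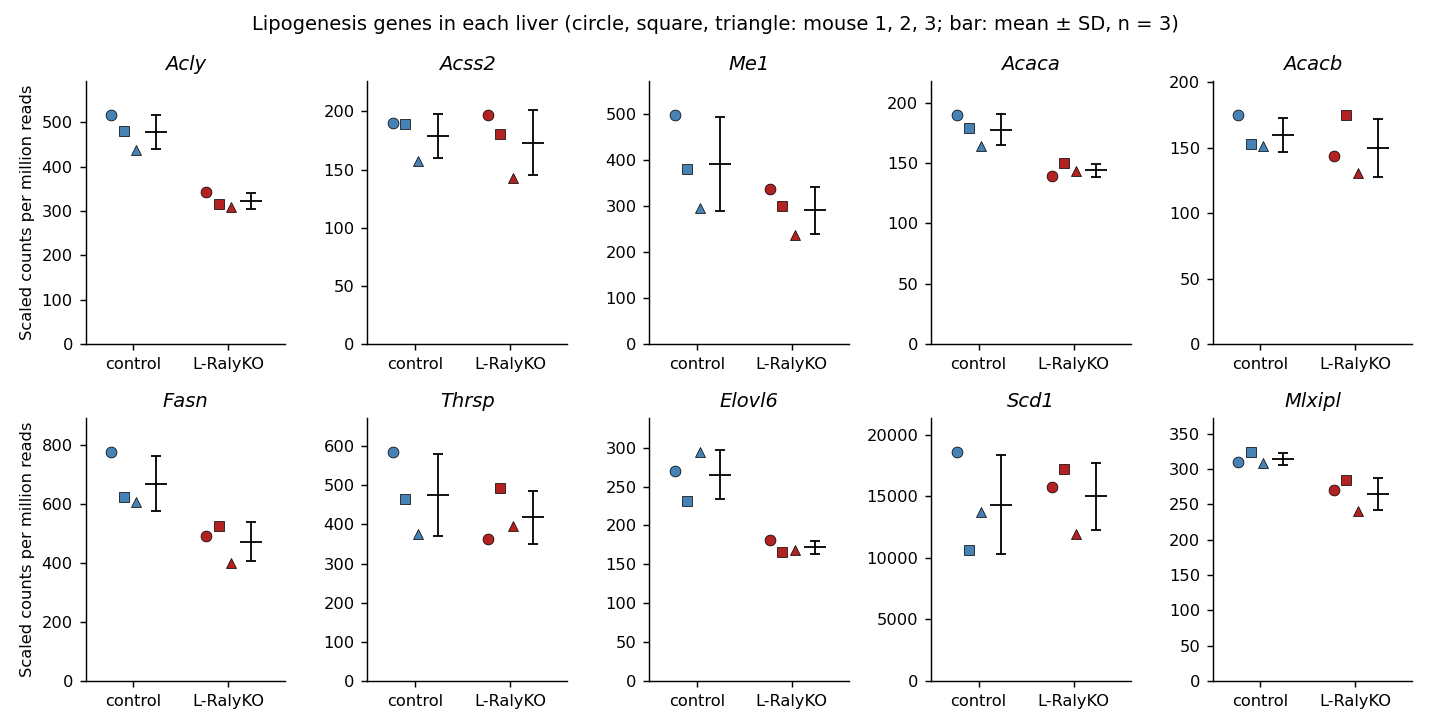
Value of each of the 10 lipogenesis genes in each mouse, as read counts divided by effective library size (CPM scale) on linear axes that start at 0, with control in blue and L-RalyKO in red, symbols for mouse 1, 2 and 3, and bars for mean ± SD (n = 3). Symbols of the groups are apart for Acly, Acaca, Fasn, Elovl6 and Mlxipl and mixed for the other 5 genes.

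Acetyl-CoA reaches the pathway from citrate or from acetate. Acly, ATP citrate lyase, cleaves cytosolic citrate (ENSMUSG00000020917.10, chr11:100337667-100389314 on the − strand, 30 exon blocks; coordinates of genes are GENCODE vM1 on NCBIM37). Acly values were 343, 315 and 308 in L-RalyKO mice 1 to 3 and 516, 480 and 437 in control mice 1 to 3. The groups were well apart, and the lowest control was higher than every L-RalyKO mouse. Acly fell by 32.5% in mean value, from 478 ± 39.1 to 322 ± 18.2 (SD, n = 3 each). The log2 fold change was -0.56 (SE 0.070, 95% interval -0.73 to -0.40, limma adjusted p = 0.00365). Acly was called under all 10 other settings, and its adjusted p was between 0.00209 and 0.0169 with 1 mouse left out.

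Acss2, the cytosolic and nuclear acetyl-CoA synthetase that uses acetate (ENSMUSG00000027605.11, chr2:155343684-155411460 on the + strand, 19 exon blocks), had values of 197, 180 and 142 in L-RalyKO and 190, 189 and 157 in controls. The groups overlapped, with mouse 3 lowest in each. Means were 173 ± 27.8 and 179 ± 18.8, and the log2 fold change was -0.05 (95% interval -0.33 to 0.22, limma adjusted p = 0.84). Its fitted value was 0.079 without L-RalyKO mouse 3, so its sign rests on that mouse. Of the exon bases of Acss2, 7.49% lie opposite exons of Gss, Ggt7 or 4930471I20Rik. The kit keeps strand, but the strand setting of the counting is not given in the sources used here, so reads of those genes may be included.

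The ratio of Acss2 to Acly in each mouse gives the acetate enzyme against the citrate enzyme without any scaling between libraries. It was 0.573, 0.572 and 0.462 in L-RalyKO and 0.369, 0.394 and 0.359 in controls. All L-RalyKO ratios were above all control ratios. Means were 0.536 ± 0.0641 and 0.374 ± 0.0181, a log2 difference of 0.51, and the two-sided exact permutation p was 0.1, the smallest that 3 against 3 mice allow.

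Me1, the cytosolic malic enzyme, yields NADPH and pyruvate from malate (ENSMUSG00000032418.8, chr9:86474970-86589947 on the − strand, 15 exon blocks). Me1 values were 338, 301 and 237 in L-RalyKO and 498, 382 and 296 in controls. The lowest control lay under the 2 higher L-RalyKO mice, so the groups overlapped. Means were 292 ± 51.1 and 392 ± 101. The log2 fold change of -0.41 was similar in size to that of Fasn but had a wide interval (-0.83 to 0.01, SE 0.185, limma adjusted p = 0.234). Control values of Me1 had a coefficient of variation of 25.9%, against a median of 6.70% over tested genes.

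Acetyl-CoA carboxylase makes malonyl-CoA and is the committed step. Acaca encodes ACC1, the cytosolic form that feeds synthesis (ENSMUSG00000020532.10, chr11:83943174-84215153 on the + strand, 61 exon blocks). Its values were 139, 150 and 143 in L-RalyKO and 189, 179 and 164 in controls. The groups did not overlap, and L-RalyKO mice differed little among themselves. Acaca fell by 18.9% in mean value, from 177 ± 12.8 to 144 ± 5.39, with a log2 fold change of -0.30 (SE 0.061, 95% interval -0.44 to -0.16, limma adjusted p = 0.0264). The call was lost without L-RalyKO mouse 1 (limma adjusted p = 0.0999) or 3 (0.0717) or control mouse 1 (0.0803) or 2 (0.0715).

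Acacb encodes ACC2, which sits at the mitochondrial surface and whose malonyl-CoA inhibits fatty acid entry (ENSMUSG00000042010.10, chr5:114596544-114700770 on the + strand, 55 exon blocks). Its values were 144, 175 and 131 in L-RalyKO and 175, 153 and 151 in controls. The groups overlapped, and the highest mouse of each group had nearly the same value. Means were 150 ± 22.5 and 160 ± 13.2, and the log2 fold change was -0.10 (95% interval -0.33 to 0.14, limma adjusted p = 0.63). The ratio of Acacb to Acaca was 1.04, 1.17 and 0.916 in L-RalyKO and 0.923, 0.853 and 0.923 in controls. These ratios overlapped too (log2 difference of 0.20, two-sided exact permutation p = 0.3), so a difference between the carboxylases in their response was not shown.

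Fasn, fatty acid synthase, joins malonyl-CoA units into palmitate (ENSMUSG00000025153.8, chr11:120667254-120685492 on the − strand, 42 exon blocks). Its values were 491, 525 and 398 in L-RalyKO and 775, 623 and 606 in controls. Every control was above every L-RalyKO mouse, with control mouse 1 far above the other controls and L-RalyKO mouse 3 below its group. Fasn fell by 29.4% in mean value, from 668 ± 93.4 to 471 ± 65.5. The log2 fold change was -0.50 (SE 0.12, 95% interval -0.78 to -0.23, limma adjusted p = 0.0445). The call was lost without any 1 of L-RalyKO mice 1 (limma adjusted p = 0.0986), 2 (0.0530) and 3 (0.1), or of control mice 1 (0.116) and 2 (0.0722), and with edgeR (quasi-likelihood adjusted p = 0.0675).

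Thrsp, or Spot 14, is a small protein of lipogenic tissues that responds to thyroid hormone and carbohydrate (ENSMUSG00000035686.7, chr7:104561448-104566240 on the − strand, 2 exon blocks). Thrsp values were 364, 493 and 397 in L-RalyKO and 585, 465 and 375 in controls. The groups were mixed, with L-RalyKO mouse 2 above 2 of the controls. Means were 418 ± 67.2 and 475 ± 105, and the log2 fold change was -0.17 (95% interval -0.54 to 0.19, limma adjusted p = 0.574). Mid1ip1, a paralogue of Thrsp whose protein promotes the polymerisation of acetyl-CoA carboxylase, was among the listed regulators and is described with them.

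Elovl6 lengthens palmitate to stearate (ENSMUSG00000041220.6, chr3:129235304-129341413 on the + strand, 5 exon blocks). Elovl6 values were 182, 166 and 169 in L-RalyKO and 270, 232 and 294 in controls. The groups were apart, and L-RalyKO mice lay close together. It had the largest fall among the members by fitted value. Mean values fell by 35.2%, from 265 ± 31.5 to 172 ± 8.36, and the log2 fold change was -0.62 (SE 0.084, 95% interval -0.81 to -0.43, limma adjusted p = 0.00527). Elovl6 was called under all 10 other settings, and its adjusted p was between 0.0024 and 0.0235 with 1 mouse left out.

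Scd1 encodes the main stearoyl-CoA desaturase of liver, which places the double bond of oleate and palmitoleate (ENSMUSG00000037071.2, chr19:44468941-44482199 on the − strand, 6 exon blocks). Scd1 values were 15776, 17244 and 11925 in L-RalyKO and 18582, 10629 and 13726 in controls. Control mice 1 and 2 held the highest and the lowest of all 6 values, so the L-RalyKO range lay inside that of the controls. Means were 14982 ± 2747 and 14312 ± 4008 (SD, n = 3 each). The log2 fold change was 0.09 with an interval from -0.40 to 0.57 (SE 0.213, limma adjusted p = 0.858), which leaves room for a change as large as that of Acly on the log2 scale upwards, and not for a fall as large as the one fitted for Acly. The sign turned without L-RalyKO mouse 2 (-0.02) or control mouse 2 (-0.11). Scd1 shares 4.66% of its 50-base words with Scd2, Scd3 or Scd4.

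Scd1 outweighed the other members in reads. It made up 84.6% to 86.9% of the summed value of the 10 genes in L-RalyKO and 77.8% to 84.1% in controls. The 10 genes summed to 17389 ± 2965 in L-RalyKO and 17421 ± 4289 in controls, a change of -0.180% (two-sided exact permutation p = 1). Without Scd1 the other 9 summed to 2468, 2589 and 2165 in L-RalyKO and 3509, 3027 and 2789 in controls. These sums did not overlap and were 22.5% apart, 2407 ± 218 against 3108 ± 367, with an exact permutation p of 0.1. A change of the summed level thus depended on whether Scd1 was counted.

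The ratio of Elovl6 to Scd1 sets elongation of palmitate beside desaturation. It was 0.0115, 0.00963 and 0.0141 in L-RalyKO and 0.0145, 0.0218 and 0.0214 in controls. All L-RalyKO ratios lay below all control ratios, although L-RalyKO mouse 3 was close to control mouse 1. The log2 difference was -0.71 (two-sided exact permutation p = 0.1). It was between -0.90 and -0.57 with 1 mouse left out.

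**Figure D2:**
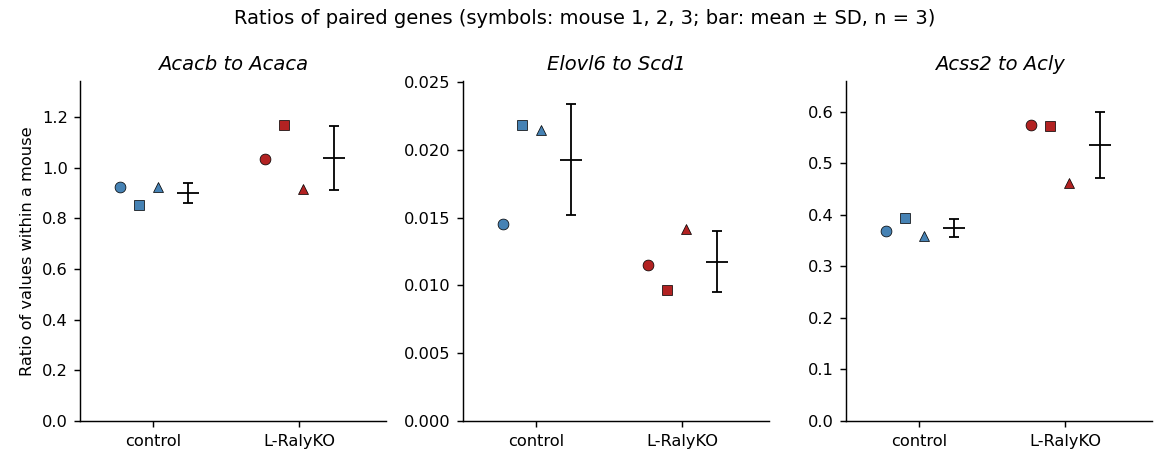
Ratio of Acacb to Acaca, of Elovl6 to Scd1 and of Acss2 to Acly within each mouse (linear axes from 0, no unit), with control in blue, L-RalyKO in red and bars for mean ± SD (n = 3). The groups overlap for Acacb to Acaca and are apart for the other 2 ratios, for which the exact p is 0.1.

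Mlxipl encodes ChREBP, the glucose-responsive transcription factor of the pathway (ENSMUSG00000005373.6, chr5:135582761-135614254 on the + strand, 14 exon blocks). Mlxipl values were 271, 284 and 240 in L-RalyKO and 311, 324 and 308 in controls. The groups did not overlap and the controls were close together, but the threshold was not passed. Means were 265 ± 22.4 and 314 ± 8.56, 15.7% apart, with a log2 fold change of -0.25 (SE 0.066, 95% interval -0.40 to -0.10, limma unadjusted p = 0.00471 and adjusted p = 0.0604). In tests of the recovered reads it passed with edgeR (quasi-likelihood adjusted p = 0.0457) and with DESeq2 (adjusted p = 0.0116) and not with limma voom (adjusted p = 0.0575). It was called in 0 of 6 fits that left out 1 mouse (limma adjusted p of 0.0550 to 0.148). The table gives 1 value per gene, so the alpha and beta forms of ChREBP were not separated.

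**Figure D3:**
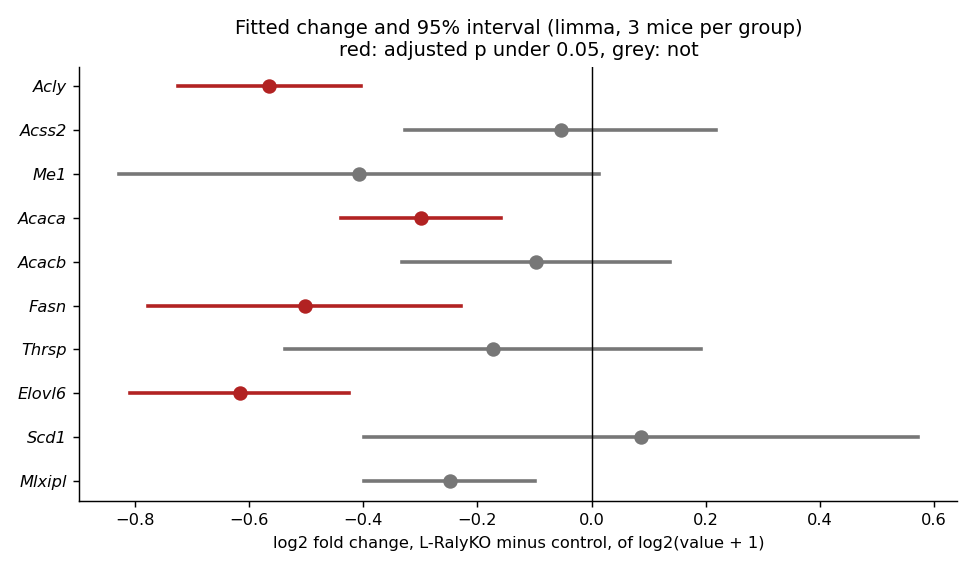
Fitted log2 fold change of each member, L-RalyKO minus control, on the log2(value + 1) scale, with its 95% interval from limma (3 mice per group). Red intervals passed an adjusted p of 0.05 (Acly, Acaca, Fasn and Elovl6), and grey ones did not, among them Mlxipl, whose interval of -0.40 to -0.10 is below 0, and Scd1, whose point alone is above 0.

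Divided by exon length, mean control levels per kilobase were in a clear order at the top. Scd1 was at 2960, Thrsp at 372, Me1 at 110, Acly at 90.5 and Fasn at 67.8. Mlxipl followed at 58.5, Elovl6 at 44.6, Acss2 at 17.6, Acaca at 17.4 and Acacb at 16.6. Ranges of the 3 controls overlapped between Me1 and Acly, between Acss2 and Acaca and between Acaca and Acacb, and not between the other neighbours. Scd1 was 18th by control level per kilobase among 10781 tested genes with an exon length, and Acacb was 2239th. Members that changed were spread over this order, from Acly to Acaca.

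The spread between mice of a group differed among the members. The median coefficient of variation over the 10 genes was 14.4% in L-RalyKO and 11.2% in controls, beside 6.25% and 6.70% over tested genes. Acaca (3.74%), Elovl6 (4.86%) and Acly (5.66%) in L-RalyKO and Mlxipl (2.72%) in controls were under those medians. Control mouse 1 had the highest control value in 8 members and the lowest in 0, where it was highest in 32.8% of tested genes. Control mouse 3 had the lowest control value in 8 members, where it was lowest in 33.5% of tested genes. L-RalyKO mouse 3 was the lowest of its group in 7 members, against 37.9% of tested genes, and the highest in 0. L-RalyKO mouse 2 was highest in 6 members and L-RalyKO mouse 1 in the other 4. Members thus tended to be high or low together within a mouse, which is a description of 6 mice.

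**Figure D4:**
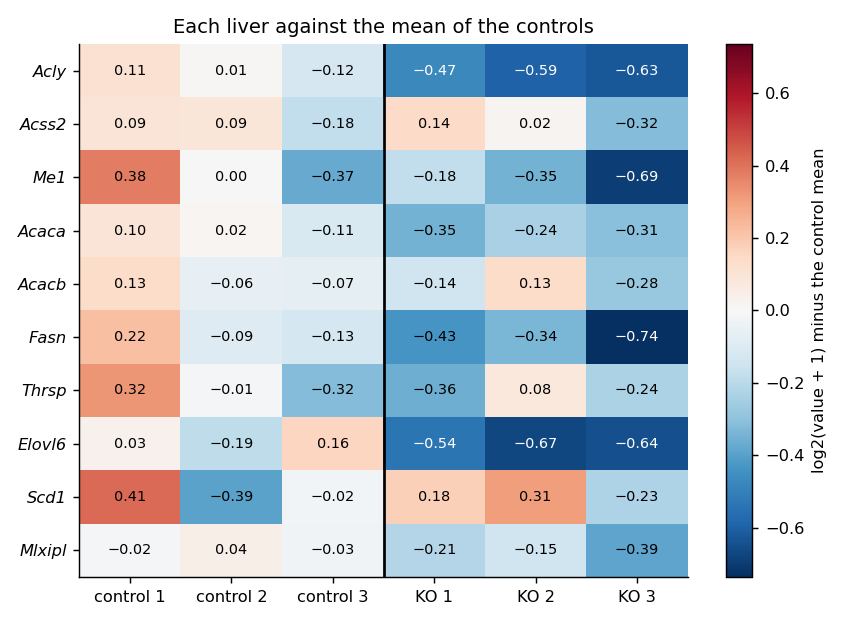
Difference of log2(value + 1) of each member in each mouse from the control mean of that gene, in log2 units (blue lower, red higher, KO for L-RalyKO). Rows of Acly, Acaca, Fasn, Elovl6, Me1 and Mlxipl are below the control mean in all 3 L-RalyKO mice. Control mouse 1 is the highest control in 8 of the 10 rows.

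Regulators of the pathway were read from a list of 19 genes, of which 3 rose, 3 fell and 13 did not pass the threshold (median log2 fold change of 0.01). Over all tested genes 3.36% were called higher and 3.19% lower. Srebf1, which encodes SREBP1, the insulin-driven activator of the pathway, was at 191, 245 and 166 in L-RalyKO and 323, 299 and 312 in controls. Its groups did not overlap, and Srebf1 fell (log2 fold change of -0.65, SE 0.12, limma adjusted p = 0.0173). Mid1ip1 was at 31.3, 34.5 and 29.2 in L-RalyKO and 54.0, 49.4 and 47.7 in controls and fell by 0.66 on the log2 scale (limma adjusted p = 0.00241). Insig1 and Insig2, whose proteins hold SREBP in the endoplasmic reticulum, changed in opposite directions at the RNA level. Insig1 rose from 126 ± 20.1 to 185 ± 18.0 (log2 fold change of 0.56, limma adjusted p = 0.0211), and Insig2 fell from 134 ± 22.5 to 88.3 ± 6.11 (-0.58, limma adjusted p = 0.0190). Mlxip, the ChREBP relative MondoA, rose (0.39, limma adjusted p = 0.0138), as did the coactivator gene Ppargc1b (0.57, limma adjusted p = 0.0204). Scap, the SREBP escort, had a fitted value of 0.08 (limma adjusted p = 0.445), and Mlx, the partner of ChREBP, one of 0.01 (limma adjusted p = 0.918), which turned negative with total count scaling. Without L-RalyKO mouse 1 only Mid1ip1 of this list was called, and without control mouse 1 only Mid1ip1 and Insig2. Srebf1 was then at a limma adjusted p of 0.0649 and 0.0630, Insig1 at 0.0748 and 0.0737, Mlxip at 0.0516 and 0.0511 and Ppargc1b at 0.0762 and 0.0708, and Insig2 was at 0.0735 without L-RalyKO mouse 1. Srebf1 was called with any other mouse left out. Insig1 and Ppargc1b were also lost without L-RalyKO mouse 2 (0.0583 and 0.0535), and Ppargc1b without L-RalyKO mouse 3 (0.0590).

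Genes that supply carbon and NADPH showed 1 change among 17 tested, a share near the 6.55% of all tested genes. Pdk1, a kinase that inhibits pyruvate dehydrogenase, fell (log2 fold change of -0.25, limma adjusted p = 0.0459), and this call was lost without any 1 mouse except control mouse 3 (0.0523 to 0.147). Pdk1 was called in 8 of 10 other settings. Slc25a1, the mitochondrial citrate carrier that supplies the substrate of Acly, was at 194 ± 13.4 in L-RalyKO and 191 ± 14.2 in controls (0.02, limma adjusted p = 0.904), with a sign that turned under total count scaling. G6pdx, which opens the pentose phosphate pathway, was at 3.30 ± 0.181 and 2.99 ± 0.179 (0.11, limma adjusted p = 0.537).

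Genes of glycolysis, fructolysis and glucose output, many of them known targets of ChREBP, showed 5 falls and no rise at the threshold among 11 tested (median -0.25). Over all tested genes 3.19% were called lower and 3.36% higher. Of the 11, 10 had an unadjusted p under 0.05, beside 22.7% of tested genes. Pklr, the liver pyruvate kinase, was at 451, 467 and 446 in L-RalyKO and 644, 663 and 562 in controls. All controls were above all L-RalyKO mice (-0.45, limma adjusted p = 0.00798). Gpd1, which makes glycerol 3-phosphate, fell by 0.58 on the log2 scale (limma adjusted p = 0.0110), and G6pc, the catalytic subunit of glucose-6-phosphatase, fell by 0.61 (limma adjusted p = 0.0125). Khk, ketohexokinase, fell too (-0.36, limma adjusted p = 0.0489), a call that was lost without any 1 mouse except control mouse 3 (0.111 to 0.128). Khk was called in 5 of 10 other settings.

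Among 21 tested genes that elongate, desaturate, activate or esterify fatty acids further, 5 rose and 1 fell (median 0.02). Over all tested genes 3.36% were called higher and 3.19% lower. The desaturases of polyunsaturated fatty acids rose, with Fads1 at 558 ± 19.1 against 405 ± 23.8 (0.46, limma adjusted p = 0.00372) and Fads2 at 462 ± 18.5 against 296 ± 8.13 (0.64, limma adjusted p = 0.000537). Elovl2, an elongase of the same fatty acids, rose too (0.40, limma adjusted p = 0.0185). Elovl5, another elongase of these fatty acids, named after its values were seen, was at 329.9 ± 40.1 against 447 ± 61.3 with all L-RalyKO mice below all controls (-0.44, limma adjusted p = 0.0552). Acsl4, an acyl-CoA synthetase that prefers arachidonate, rose by 0.45 (limma adjusted p = 0.0072), and Lpin1, a phosphatidate phosphatase, rose from 471 ± 172 to 1166 ± 171 (1.36, limma adjusted p = 0.0120). Gpam, which starts glycerolipid synthesis, fell by 0.40 on the log2 scale (limma adjusted p = 0.0474), a call that was lost without any 1 mouse except control mouse 3 (0.0744 to 0.125). Elovl2 was lost without L-RalyKO mouse 1 or 3 or control mouse 1 or 2 (limma adjusted p of 0.0585 to 0.0630). With edgeR's quasi-likelihood test neither Lpin1 (adjusted p = 0.0914) nor Gpam was called. Gpam was called in 6 of 10 other settings.

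AMPK subunits and genes of malonyl-CoA control showed 0 changes among 11 tested with limma, and 3 had an unadjusted p under 0.05, a share near the 22.7% of all tested genes. Cpt1a, the carnitine transferase that malonyl-CoA inhibits, was among them (750 ± 59.1 against 648 ± 23.9, 0.21, limma adjusted p = 0.106). The separate fatty acid synthesis of mitochondria, with the enzymes that modify acyl carriers, showed 0 changes among 10 tested with limma, and 2 had an unadjusted p under 0.05, again near that share. Of 9 genes known to be induced by fasting, 1 rose and 1 fell, beside 6.55% of tested genes called in either direction. Pck1, a gluconeogenic enzyme, rose by 0.78 (limma adjusted p = 0.00312), and Cyp4a14, a fatty acid hydroxylase, fell by 0.70 on the log2 scale (limma adjusted p = 0.0138).

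**Figure D5:**
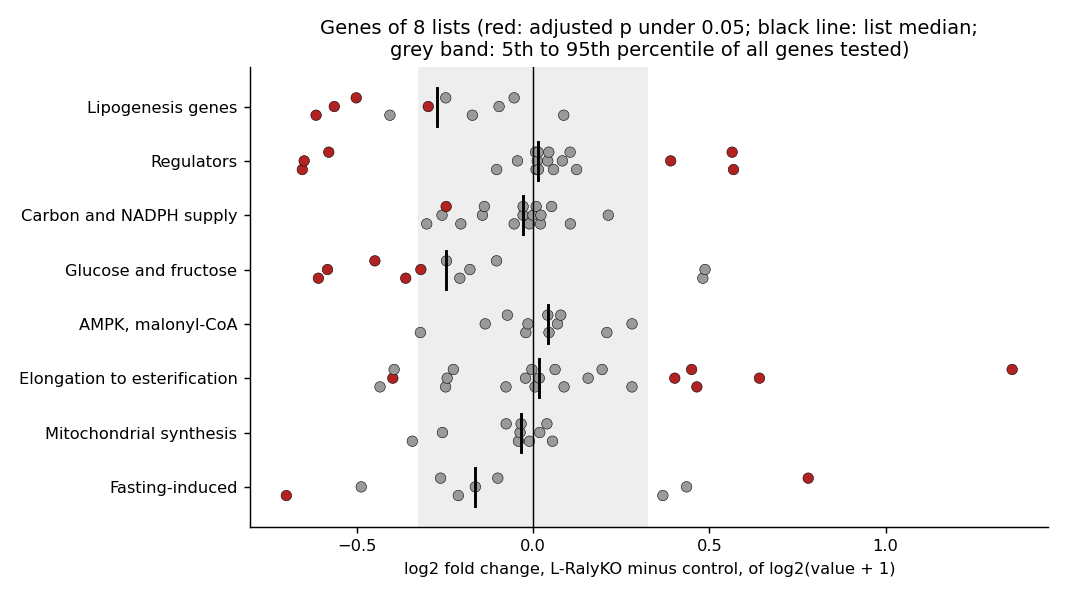
Fitted log2 fold change (L-RalyKO minus control, log2(value + 1)) of each tested gene in the members and the 7 other lists of pathway genes, with red points for an adjusted p under 0.05, a black line for the median of each list and a grey band from the 5th to the 95th percentile of all tested genes. The members have 4 red points, all below 0, whereas the list of elongation, desaturation and esterification partners has 5 above 0 and 1 below.

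Markers of other cells were read beside these values, and their part in the falls was not tested. The 10 adipocyte markers, a list chosen since fat tissue expresses the lipogenic enzymes, summed to 10.7 to 12.3 in L-RalyKO and 15.95 to 73.7 in controls, highest in control mouse 1. In that mouse Cidec was at 38.8, Cidea at 14.1 and Cfd at 12.6, while Adipoq was at 0.119 (3 reads are worth 0.0789 to 0.105) and Lep at 0.209, and Slc7a10 was at 0 in every mouse. Most of the sum in control mouse 1 thus came from Cidec, Cidea and Cfd. Which cells expressed them was not tested, so the sum is not a measured level of fat tissue. Of 4 adipocyte markers tested, Cfd fell (-2.10, limma adjusted p = 0.0318; 0.101 without L-RalyKO mouse 1, 0.0934 without L-RalyKO mouse 3), a call made in 5 of 9 other settings, with fitted values from -3.96 to -2.10, while Cidec (adjusted p = 0.105), Cidea (0.192) and Fabp4 (0.368) did not pass. Without control mouse 1, the fitted value was -0.51 for Acly (limma adjusted p = 0.0115), -0.60 for Elovl6 (0.0221), -0.39 for Fasn (0.116) and -0.25 for Acaca (0.0803), and the marker sums of the other controls, 15.95 and 25.2, were still above those of every L-RalyKO mouse. The 9 hepatocyte markers summed to 104711 to 105884 in L-RalyKO and 95264 to 103362 in controls. Most of each sum was Alb, whose groups overlapped (70091 to 70819 in L-RalyKO, 63858 to 71897 in controls). L-RalyKO values lay above all controls in 3 of the 9 and below all in 1, beside 14.4% and 13.7% of tested genes. Of the 9, 1 was called, Hnf4a, which rose (0.55, limma adjusted p = 0.0155, and 0.0509 to 0.0617 without L-RalyKO mouse 1 or control mouse 1 or 2). No Kupffer, endothelial, stellate, cholangiocyte or leukocyte marker was called among 25 tested with limma, beside 6.55% of tested genes. An unadjusted p under 0.05 was found for 2 of the 25, beside 22.7% of tested genes. No pancreatic marker was high enough to test.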

How the data were processed

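The samples used here are livers of 3 L-RalyKO and 3 control mice, whose RNA was sequenced with a stranded kit and paired reads. The study's figure legend states more livers per group for its RNA-seq than these 3. The authors aligned reads with TopHat 2.0.2 to mm9 and compared FPKM with Cufflinks 2.0.2. The table deposited by the authors holds a signal on the scale of CPM, in which each gene's reads were divided by an effective library size. All values of each column were whole multiples of 1 read (100%, tolerance 0.01 reads), and the recovered scaling factors equalled TMM factors recomputed here. The values were neither FPKM nor raw counts, so limma was used as planned for such values. There were 0 unused columns.

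Genes with a mean of at least 1 were tested by limma (version 3.58.1, R 4.3.3) after a log2(value + 1) transform, using its intensity trend, and p values were adjusted over all of them by the Benjamini-Hochberg method. Alternatives were edgeR 4.0.16, DESeq2 1.42.0 and limma voom on recovered reads, upper-quartile and total count scaling, other filters (none, or a mean of 5), a pseudocount of 0.1, no trend, a replicate block and leaving out each mouse. Fits were tested on simulated data, and the outcome of that check is not reported here. Ratios and sums were compared by exact permutation over 20 splits. Chi-square per degree of freedom between mice of a group was 10.9 to 71.9, so no library was a duplicate.

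The genes named are the members, called genes of the other lists, a few fixed regulators and markers, and Raly. Members and lists were chosen with earlier results of these data known, and some genes that the rule names are not reported here. Gene models are GENCODE vM1 on NCBIM37, and promoter windows, 9 of 10 members matched, are RefSeq on GRCm38.p6. ATAC-seq and ChIP-seq were not analysed here. Intervals come from the spread over 3 mice per group, and counting limits cover counting error only.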

Additional observations from a re-analysis of the deposited data

How the results depend on the processing

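Acly and Elovl6 were called in all settings tried and all 6 leave-outs. Of the 10 members, 4 were called in the reported fit, 2 without the intensity trend (limma adjusted p of 0.0628 for Acaca and 0.0808 for Fasn), 3 with no filter, 4 with edgeR (3 of them shared, Mlxipl in place of Fasn), 5 with DESeq2 and 5 with total count scaling, and 2 to 4 with 1 mouse left out. Of all genes 758 were called, 484 with no filter and 332 to 813 with 1 mouse left out, lowest without L-RalyKO mouse 1. Of the listed pathway genes 20 were called, and 10 to 23 with 1 mouse left out. Higher calls were 51.3% of all calls and 40.9% with total count scaling, which moved the median of all genes by -0.03.

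Fitted values turned sign for Mlx (-0.019) and Slc25a1 (-0.014) with total count scaling. With 1 mouse left out, Scd1 ranged from -0.11 to 0.29, Acss2 from -0.15 to 0.079, Mlx from -0.018 to 0.033 and Slc25a1 from -0.037 to 0.079. The ratios kept their direction with any 1 mouse left out.

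Over all tested genes, mice with the same replicate number showed little shared deviation (correlation of deviations of 0.07, -0.02 and 0.02 for numbers 1 to 3, different animals). This was not computed for the members alone, and whether mice with the same number were collected together is not given in the sources used here. With a replicate block 6 members were called, the same 4 with Me1 and Mlxipl, and 704 genes in all. The cause was not tested for any of these changes. Every member had at least 4356 reads in each mouse, and what share of the interval width comes from counting was not tested.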
